A study of Mus musculus with 20 samples.

Results

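The comparison described here is rapamycin against vehicle in ventricles that keep Acsl1, whose enzyme couples long-chain fatty acids to coenzyme A so that heart mitochondria can burn them. It takes 10 of the 20 libraries of the series: 5 labelled Acsl1flox/flox_Vehicle, called control vehicle below, and 5 labelled Acsl1flox/flox_Rapamycin, called control rapamycin. The choice was by label, and every gene with a value of at least 10 in at least 5 of the 20 libraries was tested, which left 13548 of 21705 genes. The whole study crossed this drug with deletion of Acsl1 from the heart (Acsl1H-/-, called knockout) in 4 groups of 5 libraries, and poly(A) RNA of heart ventricle was sequenced.

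All animals of the 4 groups were male C57Bl/J6 mice. Both genotypes received tamoxifen, 75 mg/kg intraperitoneally on 4 days, from 6 to 8 weeks of age, and the control mice were floxed littermates of the knockouts that had the tamoxifen too. Rapamycin at 1 mg/kg, or its solvent alone, was injected daily for 2 weeks, and tissue was frozen 2 weeks after tamoxifen. The series' design text calls the 5 libraries of a group biological replicates. The Cre driver of the knockout line is not given in the sources used here. A pool number in the labels places control vehicle libraries 1 and 4 and control rapamycin library 1 in pool 1, and the other control libraries are spread over pools 2, 3 and 4, each with both treatments.

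Rapamycin binds the small immunophilin FKBP12, and the pair of them blocks mTORC1, a kinase complex that senses amino acids, insulin and energy and drives ribosome production, translation of ribosomal protein mRNAs, glycolysis, sterol synthesis and growth while holding back autophagy. Longer exposure can also disturb mTORC2, another complex built on the same kinase. In the heart, mTORC1 activity accompanies hypertrophic growth, and rapamycin is known for blunting such growth. Much of what mTORC1 does is done by phosphorylation and translation, which mRNA levels do not show.

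No gene passed the test in control hearts. In the limma fit, 0 of 13548 genes (0%) had an adjusted p under 0.05, and the lowest adjusted p was 0.225. At an unadjusted p under 0.05 there were 2024 genes (14.9%), of which 1439 had a higher mean on the log2 scale with rapamycin (10.6%) and 585 a lower one (4.32%). Whatever the p, 58.6% of the genes had a higher and 41.4% a lower mean. The 5 rapamycin and 5 vehicle libraries did not overlap at all in 198 genes (1.46%), 118 higher (0.871%) and 80 lower (0.59%). The values are the authors' RSEM abundance estimates, normalized to an upper quartile near 1000 in every library. Every log2 change below is rapamycin minus vehicle on the log2(value + 1) scale. Since no gene passed, those named below are described by their values, and none is called raised or lowered.

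The depth implied by the smallest step between values was 11.5 to 21.1 M reads per library, 13.5 ± 2.31 in control vehicle and 15.8 ± 3.38 in control rapamycin libraries (mean ± SD, n = 5 each). Control vehicle libraries 1 and 3 stood apart from the other 18. The first principal component (33.7% of the variance) placed them at -73.4 and -84.6. Their long-minus-short score, the mean log2 deviation of genes with long transcripts (at least 4987 bases) minus that of genes with short ones (at most 2302 bases), was -0.999 and -1.11, against -0.45 to 0.56 in the rest. Without those libraries 474 genes (3.5%) reached an unadjusted p under 0.05, 294 higher (2.17%) and 180 lower (1.33%), and again 0 had an adjusted p under 0.05. Acsl1 itself had values of 6373, 13112, 7659, 9844 and 13431 in control vehicle and 12198, 10518, 12121, 16661 and 11698 in control rapamycin libraries, a log2 change of 0.37 (SE 0.28, adjusted p = 0.46), or 0.06 without vehicle 1 and 3. Both knockout groups lay far below, at 1257 ± 381 with vehicle and 1224 ± 520.4 with rapamycin (mean ± SD, n = 5).

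The genes with the lowest p in the downward direction included enzymes of amino acid, ketone body and creatine metabolism. The 12 named by rule, those of smallest p with a mean of at least 100 and no overlap between the groups, were Bcat2, Ccbl2, Ckb, Acy3, Bckdhb, 2310002L09Rik, Pmm2, Fah, Yars2, Gcdh, Scgb1c1 and Bdh1. Bcat2 (Entrez 12036), the mitochondrial aminotransferase that takes the amino group off leucine, isoleucine and valine, had the smallest p of all genes. Its values were 4078, 3878, 3596, 2855 and 3120.5 in control vehicle and 2067, 2118, 2585, 2173 and 2251 in control rapamycin libraries, or 3506 ± 511 against 2239 ± 205 (mean ± SD, n = 5). The lowest vehicle heart stood above the highest rapamycin heart, and the log2 change was -0.64 (SE 0.12, adjusted p = 0.225). Without control vehicle 1 and 3 it was -0.55, and within pools 1 to 4 the differences were -0.72, -0.85, -0.48 and -0.47. The choice by no overlap fixed the sign of these values, as for every gene named by this rule, so only their size is informative. Pools 3 and 4 hold 1 control library of each treatment, and the vehicle library of pool 3 is number 3.

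Bckdhb (Entrez 12040) encodes the E1 beta subunit of the branched-chain ketoacid dehydrogenase, which takes the next and committed step after Bcat2. It had 2638, 2623, 3383, 2143 and 2213 in control vehicle and 1931, 2012, 1833, 1629.8 and 1690.4 in control rapamycin libraries, without overlap, a log2 change of -0.50 (SE 0.11, adjusted p = 0.225). The highest vehicle value came from library 3, and without libraries 1 and 3 the log2 change was -0.35. The start-site windows of these consecutive enzymes are shown because both carry a CCACCC box, the kind of element bound by Krüppel-like factors such as Klf15, a cardiac regulator of branched-chain amino acid breakdown. They run from 250 bases before to 50 after the RefSeq start in GRCm38.p6, a later build than the mm9 the authors used, and capitals mark the box, which reads GGGTGG on the strand printed. Bcat2 lies at chr7:45569903-45570202 and Bckdhb at chr9:83924887-83925186, both on the plus strand.
Bcat2: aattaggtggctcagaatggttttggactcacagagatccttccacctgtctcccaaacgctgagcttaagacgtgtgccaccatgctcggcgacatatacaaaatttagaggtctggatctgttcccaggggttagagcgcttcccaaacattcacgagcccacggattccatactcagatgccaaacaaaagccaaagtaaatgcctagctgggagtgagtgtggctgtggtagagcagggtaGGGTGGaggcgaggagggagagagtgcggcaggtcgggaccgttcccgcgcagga
Bckdhb: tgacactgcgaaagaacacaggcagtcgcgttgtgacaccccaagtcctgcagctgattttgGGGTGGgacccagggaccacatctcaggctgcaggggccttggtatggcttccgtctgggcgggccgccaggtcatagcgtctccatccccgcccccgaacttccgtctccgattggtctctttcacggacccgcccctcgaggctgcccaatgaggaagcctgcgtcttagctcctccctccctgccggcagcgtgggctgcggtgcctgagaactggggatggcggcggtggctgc
A second RefSeq start of each gene held no such box. The motif was searched on both strands after the results were known. It was in at least 1 window of 7 of the 12 lower genes (58.3%) and of 6 of the 10 higher named genes with a window (60.0%). The share was 34% of all 27025 genes with a window and 31.5% of all 32851 windows. Those genes include many that were not tested here, and the share among tested genes was not computed, so no excess can be read from these values. Klf15, named after its values were seen, had 2435, 3880.3, 5056, 963 and 2271 in control vehicle and 4037, 1706, 1686, 1916 and 1694 in control rapamycin libraries, and these groups overlapped (log2 change -0.29, unadjusted p = 0.435, or 0.02 without vehicle 1 and 3).

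The branched-chain pathway had mixed signs in control hearts. Of its 19 enzymes and regulators, with Bcat2 and Bckdhb among them, 11 had a lower (57.9%, all genes 41.4%) and 8 a higher mean log2 value. None passed, and only Bcat2 and Bckdhb, already chosen by p, had an unadjusted p under 0.05 (10.5%, all genes 4.32% lower). The median log2 change was -0.04, against 0.07 over all genes, and -0.12 without control vehicle 1 and 3, when 18 of 19 were lower. Of the 18, 3 had an unadjusted p under 0.05 (1.33% of all genes were lower at that p). Bckdha, the E1 alpha partner of Bckdhb, stood at 7720.2 ± 966 against 7699 ± 769 (log2 change -0.00; it, Dbt, Bckdk, Mccc2 and Hibch were named after their values were seen). Dbt, the E2 core, had a log2 change of 0.18 and Bckdk, the kinase that switches the complex off, -0.20; without vehicle 1 and 3 they had -0.40 and -0.01. Further down the valine route, Aldh6a1 had -0.28 and Hibch -0.10, and on the leucine route Mccc2 had -0.20.

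Other amino acid enzymes were among the 12. Ccbl2 (Entrez 229905), now called Kyat3, an aminotransferase of kynurenine and sulfur amino acids, had 987, 1073, 1229.7, 821 and 839 in control vehicle and 639, 651, 704, 636 and 552 in control rapamycin hearts (log2 change -0.62, SE 0.13, adjusted p = 0.225). Gcdh (Entrez 270076), the dehydrogenase of lysine and tryptophan breakdown, had 2419.6, 2278, 2828, 2042 and 2168 against 1944, 1771, 1866, 1755 and 1653, a log2 change of -0.38 (SE 0.09). Every rapamycin heart stood below every vehicle heart for both. Fah, the last enzyme of tyrosine breakdown, had a log2 change of -0.75, with 1 vehicle library, number 3, at 1229.7 and the other 4 at 604 to 732. Acy3, an aminoacylase, had -0.70, Yars2, the mitochondrial tyrosyl-tRNA synthetase, -0.49, and Pmm2, which makes mannose 1-phosphate for glycosylation, -0.56. Slc25a13, the mitochondrial aspartate-glutamate carrier, was named after its values were seen. It had 5259, 6566, 6107, 4463 and 5691 with vehicle and 4673, 3672, 4257, 4548 and 3827 with rapamycin, with vehicle library 4 below rapamycin libraries 1 and 4, and a log2 change of -0.41 (SE 0.10, adjusted p = 0.326).

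Bdh1 (Entrez 71911), the mitochondrial dehydrogenase that lets the heart burn 3-hydroxybutyrate, had the largest log2 change of the 12. Control vehicle hearts had 3174, 3001, 1645, 2386 and 2875 and control rapamycin hearts 1207, 672, 1486, 629.6 and 1049.8, a log2 change of -1.41 (SE 0.34, adjusted p = 0.326). Vehicle library 3 was the lowest of its group and still stood above the highest rapamycin heart, and without libraries 1 and 3 the log2 change was -1.52. Ckb (Entrez 12709), the brain-type creatine kinase that buffers ATP in the cytosol, had 2547, 1636, 2397, 1809 and 1619.7 against 1144, 1072, 1160.5, 761 and 1174 (log2 change -0.90, SE 0.19, adjusted p = 0.225). The 2 highest Ckb values came from vehicle libraries 1 and 3, and the log2 change without them was -0.68. Scgb1c1, a secretoglobin, and 2310002L09Rik complete the 12, with log2 changes of -1.21 and -0.64.

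**Figure D1:**
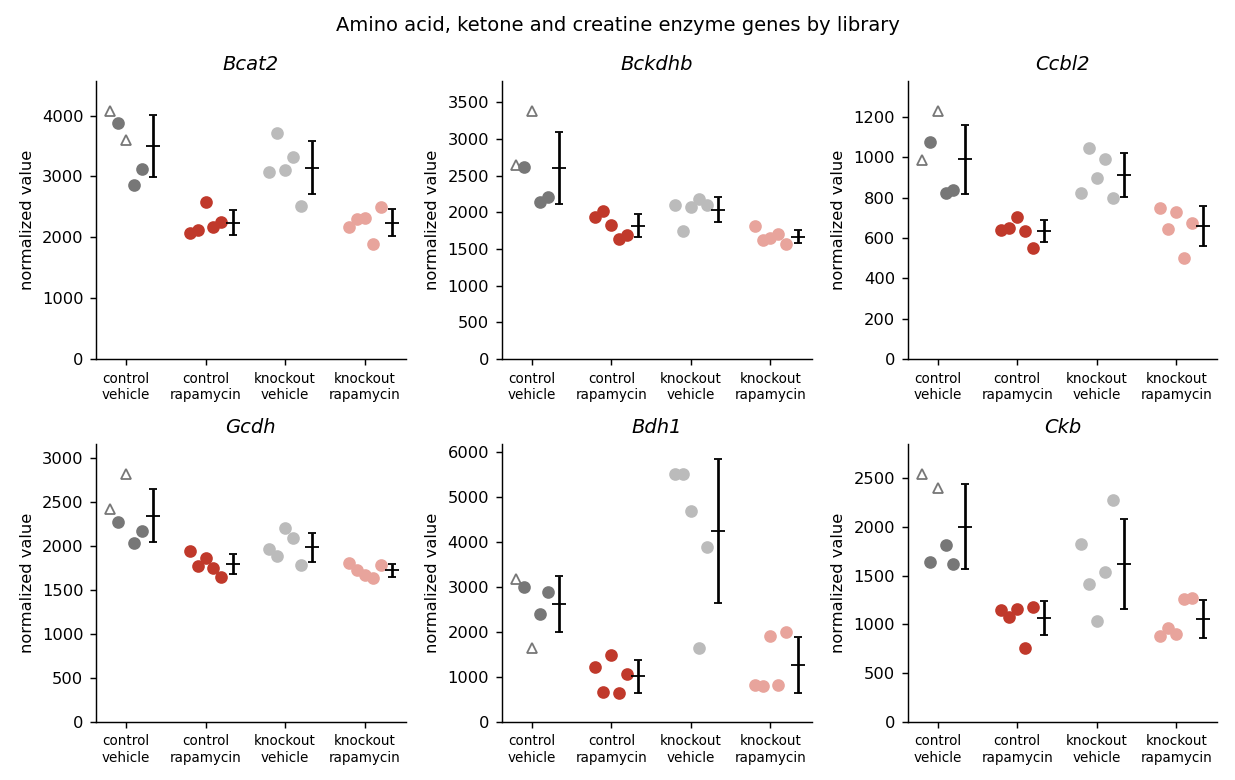
Normalized values (linear axes from 0) of 6 of the named lower genes in all 20 libraries, with mean and SD at the right of each group of 5. Open triangles are control vehicle libraries 1 and 3; in every panel the 5 control rapamycin hearts lie below the 5 control vehicle hearts, and for Bcat2 between 2067 and 2585.

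The knockout mice are another 10 animals given rapamycin or vehicle. Their rapamycin difference was not used in the choice of these genes, but their spread entered the SE, which both contrasts share in the fit over 20 libraries, and the filter on low values. All 12 of the genes also had a lower mean log2 value with rapamycin there, and 9 of the 12 had an unadjusted p under 0.05 in that direction (75%), against 53.4% and 3.42% of all genes. The median knockout log2 change of the 12 was -0.41. Bcat2 went from 3143 ± 435 to 2237 ± 223 (log2 change -0.48, unadjusted p = 0.000496), Bdh1 from 4245 ± 1604 to 1264 ± 621 (-1.76, unadjusted p = 5.38e-05) and Ccbl2 had -0.47 (unadjusted p = 0.00156). The 3 that missed 0.05 were Fah at -0.05, 2310002L09Rik at -0.17 and Scgb1c1 at -0.51. Slc25a13 had -0.41 in knockout hearts, the same to 2 decimals as in controls.

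In the knockout arm 1 gene of 13548 passed (0.00738%), and 774 had an unadjusted p under 0.05 (5.71%). The gene was Pdhx, the E3-binding component of the pyruvate dehydrogenase complex, which fell by 0.63 on the log2 scale (adjusted p = 0.0467). With any 1 control library left out of the shared fit, the count in the knockout arm was 0. In control hearts Pdhx had 3464, 3394, 3624, 3528 and 3708 with vehicle and 3166, 2606, 2971, 2944 and 3011 with rapamycin, with no overlap, and a log2 change of -0.27 (SE 0.10, adjusted p = 0.328). Abat, the GABA aminotransferase, had -1.56 in knockout and -0.56 in control hearts, where the groups overlapped; both were named after their values were seen. The test of the difference between the genotypes gave 0 of 13548 genes with an adjusted p under 0.05 and 1124 (8.3%) at an unadjusted p under 0.05. Across the branched-chain list, 16 of 19 genes were lower in knockout hearts (all genes 53.4%), with a median of -0.29. Of these, 9 had an unadjusted p under 0.05 (all genes 3.42%).

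The 12 genes named by the same rule in the upward direction were Slc20a1, Frem2, Adrbk2, Gnao1, 6430548M08Rik, A4galt, Rbms3, Gm5643, Nxf1, Ddx17, Ankra2 and Gmcl1, with adjusted p between 0.225 and 0.326. Slc20a1 (Entrez 20515), a sodium-coupled phosphate importer, had 127, 167, 114, 154 and 145 in control vehicle and 207, 213, 275, 254 and 308 in control rapamycin hearts (log2 change 0.82, SE 0.17, adjusted p = 0.225). Frem2 (Entrez 242022), a basement membrane protein, had 103, 155, 65.0, 243 and 216 against 379, 332, 279, 566 and 386 (log2 change 1.42, SE 0.29). Gnao1 (Entrez 14681), the alpha subunit of the Go protein, had 239, 394, 211, 390.5 and 418 against 695, 636, 532, 547 and 641 (log2 change 0.93, SE 0.20). All 5 rapamycin hearts stood above all 5 vehicle hearts in each, and vehicle library 3 was the lowest of its group for all 3.

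The other 9 places held genes of several kinds. Ddx17, an RNA helicase, had a log2 change of 0.53, Nxf1, the main mRNA export receptor, 0.47, and Rbms3, an RNA-binding protein, 0.75. Adrbk2, also called Grk3, a kinase that turns off G-protein-coupled receptors, had 0.48. Ankra2, an ankyrin repeat protein, had the tightest groups, 214, 200.1, 223, 228 and 232 with vehicle and 293, 286, 277, 285 and 281 with rapamycin (log2 change 0.37, SE 0.10). A4galt, a glycolipid galactosyltransferase, had 0.72 and Gmcl1 0.45.

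Of these 12, 4 had a higher and 8 a lower mean log2 value with rapamycin in knockout hearts, and 0 were higher there at an unadjusted p under 0.05, against 46.6% and 2.3% of all genes. The median knockout log2 change was -0.04. Gnao1 had 632 ± 115 with vehicle and 610.2 ± 171 with rapamycin in knockout hearts, both near the control rapamycin mean of 610.2 and above the control vehicle mean of 331. Ddx17 likewise had 1761 ± 283 and 1632 ± 313 in the knockout groups, 1877 ± 191 in control rapamycin and 1306 ± 174 in control vehicle. For both of these genes control vehicle was the lowest of the 4 groups. The interaction test shares the control contrast that chose them and is not counted for that reason. The median transcript length of the 11 higher genes with a length was 4732 bases and of the 12 lower genes 2124, against 3450 over all genes, and control vehicle 1 and 3 were the libraries lowest in long transcripts. With the long-minus-short score as a covariate Slc20a1 had 0.64, Frem2 1.00, Gnao1 0.72 and Ddx17 0.40. Without control vehicle 1 and 3 Slc20a1 had 0.68, Frem2 0.91, Gnao1 0.60 and Ddx17 0.48. These genes were chosen by the same contrast in the same libraries, so neither refit is a separate test of them. The score was also built from the tested genes, and the part of transcript length was not tested.

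**Figure D2:**
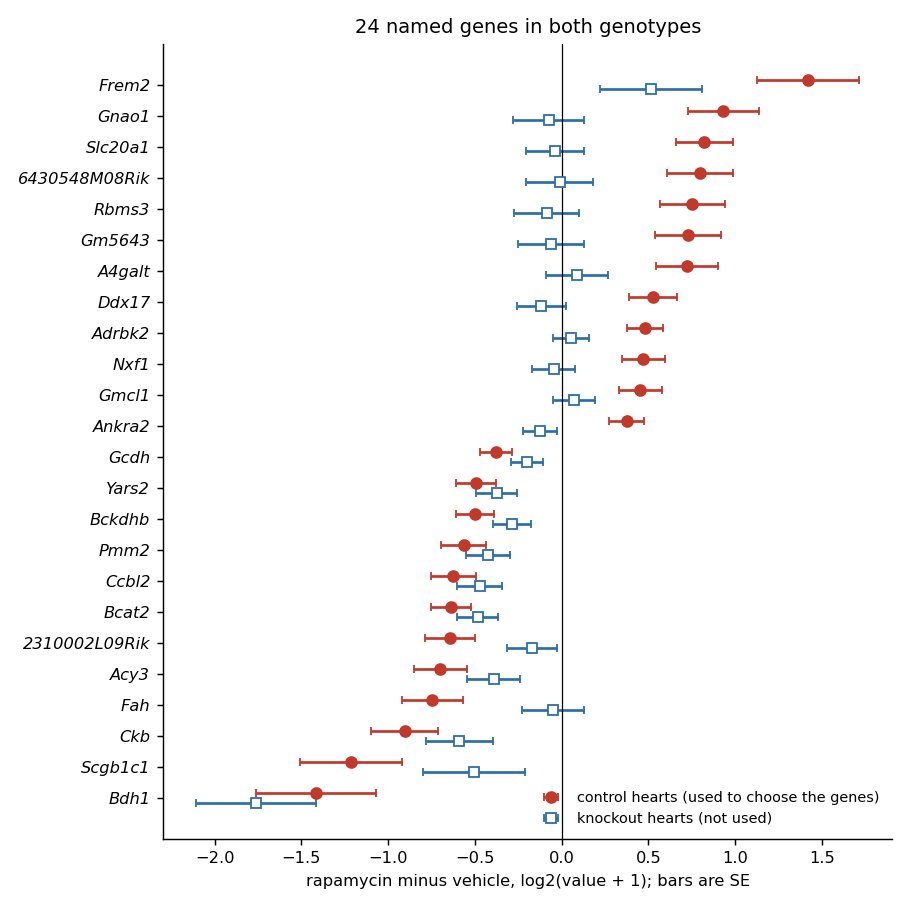
Log2 change with rapamycin (x axis, log2(value + 1); bars are SE) of the 12 higher and 12 lower named genes in control hearts (filled circles, which chose the genes) and in knockout hearts (open squares, whose difference did not). The lower genes lie left of 0 in both, while the knockout values of the higher genes lie around 0, apart from Frem2 at 0.52.

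For the genes of the drug's own target the signs were mixed. Of 11 genes of the mTOR complexes, 6 had a higher and 5 a lower mean with rapamycin (all genes 58.6% and 41.4%). At an unadjusted p under 0.05 there was 1 in each direction (9.09% each, all genes 10.6% higher and 4.32% lower). The median log2 change of the list was 0.10, and it became -0.00 without control vehicle 1 and 3. Mtor, the kinase, had 761, 1758, 735, 1331 and 2208 in control vehicle and 1602, 1141, 1407, 1914 and 1425 in control rapamycin hearts (log2 change 0.26, SE 0.25, adjusted p = 0.567), or -0.23 without vehicle 1 and 3. The 2 lowest hearts were vehicle 1 and 3, the highest was vehicle 5, and every rapamycin heart lay between. Rptor, the mTORC1 scaffold, had a log2 change of 0.29 and Rictor, the mTORC2 scaffold, 0.40; without vehicle 1 and 3 they had -0.01 and 0.04. Deptor, an inhibitor of both complexes, had 203, 406, 195, 411 and 363 against 519, 394, 394, 611 and 432 (log2 change 0.63, SE 0.22, unadjusted p = 0.01, 0.24 without vehicle 1 and 3). Mlst8, a subunit of both, had -0.07, Akt1s1, the mTORC1 inhibitor PRAS40, -0.21, and Telo2, a chaperone adaptor that assembles the kinase, -0.32 in control and -0.32 in knockout hearts. Without vehicle 1 and 3 these 3 had 0.07, -0.06 and -0.11 in control hearts.

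Upstream of mTORC1, 22 of 34 regulators had a lower (64.7%, all genes 41.4%) and 12 a higher mean, and the median was -0.09. The 1 regulator with an unadjusted p under 0.05 was lower (2.94%, all genes 4.32%). Without vehicle 1 and 3, 25 of 34 were lower, with a median of -0.07. Of the 25, 2 had an unadjusted p under 0.05 (1.33% of all genes were lower at that p). Rheb, the GTPase that switches the complex on, had -0.10, and its brakes Tsc1 and Tsc2 had 0.33 and -0.08; without vehicle 1 and 3 the 3 had 0.02, -0.18 and -0.22, so Rheb and Tsc1 turned sign. Ddit4, the stress-induced inhibitor REDD1, had 1328, 4294, 5199.5, 1124 and 692 with vehicle and 3888, 1818, 531, 601 and 388 with rapamycin, with a wide spread in each group and a log2 change of -0.94 (SE 0.59, adjusted p = 0.393), or -0.62 without vehicle 1 and 3. Its relative Ddit4l had -0.61 (unadjusted p = 0.0212), or -0.26 without vehicle 1 and 3. Sesn3, a sestrin that restrains mTORC1, had -0.35 in control and -0.52 in knockout hearts (unadjusted p = 0.0558 and 0.0061). Without vehicle 1 and 3 it had -0.51 in control hearts.

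Among 24 substrates and effectors, 16 had a higher and 8 a lower mean, 2 higher at an unadjusted p under 0.05 (8.33%, all genes 10.6%), with a median of 0.09. That median was 0.02 without vehicle 1 and 3, with 13 higher and 11 lower. Eif4b, a helicase cofactor of cap-dependent translation and a target of S6 kinase, had 4699, 6268, 4868, 5954 and 6057 in control vehicle and 6409, 7329, 7383, 7421 and 7799 in control rapamycin hearts. The groups did not overlap, and the log2 change was 0.39 (SE 0.11, adjusted p = 0.328), 0.25 without vehicle 1 and 3 and 0.26 in knockout hearts (unadjusted p = 0.026). Larp1, which binds the 5′ ends of ribosomal protein mRNAs, had 0.72 with all libraries and 0.12 without vehicle 1 and 3. The genes whose proteins are the usual readouts of mTORC1 by phosphorylation overlapped between the groups: Rps6kb1 had 0.35, Rps6 -0.12, Eif4ebp1 -0.28 and Ulk1, the autophagy kinase, 0.14. Without vehicle 1 and 3 these were 0.02, 0.17, -0.06 and -0.13, with the sign turned for Rps6 and Ulk1. Grb10, a substrate that damps insulin signalling, had 0.22, or 0.08 without vehicle 1 and 3. In the wider insulin and IGF list, 23 of 31 genes had a higher mean (all genes 58.6%), 5 at an unadjusted p under 0.05 (16.1%, all genes 10.6%), with a median of 0.20 that was -0.00 without vehicle 1 and 3; the receptor adaptors Irs1 and Irs2 had 0.24 and -0.33 (-0.00 and -0.75 without vehicle 1 and 3), Socs2, a cytokine signalling inhibitor, 0.53 and Igfbp5, which binds IGF, 0.56 (0.32 without those libraries).

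The groups also overlapped for the drug's receptor. Fkbp1a, which encodes FKBP12, had 6942, 3990.2, 5787, 5717 and 4224 with vehicle and 4832, 5887, 5383, 4061 and 5201 with rapamycin (log2 change -0.05, SE 0.17, or 0.14 without vehicle 1 and 3), and Fkbp1b, its relative at the ryanodine receptor, 0.18 at values of at most 20.2. Of 14 FK506-binding protein genes 7 were higher and 7 lower, with a median of 0.02, or -0.03 after either other scaling of the values. Fkbp11, a secretory-pathway member, had the smallest p of the list, with 123, 66.7, 69.6, 53.7 and 29.0 against 52.3, 39.1, 28.1, 11.8 and 33.8 (log2 change -1.03, unadjusted p = 0.0086) and overlap between the groups. Fkbp5, a glucocorticoid-induced member, spread from 232 to 2058 among vehicle and from 383 to 2735 among rapamycin hearts.

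Cytosolic ribosomal protein genes, the mRNAs whose translation mTORC1 governs, lay lower in 79 of 81 cases with rapamycin, with a median of -0.24, but none of the 79 had an unadjusted p under 0.05. Without control vehicle 1 and 3 the sign turned: 70 of 81 were higher and the median was 0.12. In knockout hearts 78 of 81 were higher, with a median of 0.22. The mean log2 deviation of the list from the average of all libraries was 0.77 and 0.80 in vehicle 1 and 3, from -0.23 to -0.00 in the other vehicle hearts and from -0.42 to 0.41 in rapamycin hearts. Rpl4, a large-subunit protein, had the opposite sign to most of its list, 10589, 10213, 10954, 11931 and 11653 against 12239, 12537, 13856, 14082 and 11792 (log2 change 0.22, unadjusted p = 0.0176), and 0.22 in knockout hearts. Ribosome biogenesis factors were higher in 25 of 40 (62.5%, all genes 58.6%), 11 at an unadjusted p under 0.05 in all 10 libraries (27.5%, all genes 10.6%) and 1 without vehicle 1 and 3, with medians of 0.16 and 0.04. Npm1, a nucleolar chaperone of ribosome assembly, was apart between the groups, 2069, 2077, 2097, 2213 and 2419 against 2574, 2795, 2444, 2626 and 2516 (log2 change 0.25, SE 0.08, adjusted p = 0.328), and had 0.21 without vehicle 1 and 3. Translation factors had a median of -0.04, with 21 higher and 26 lower of 47. Their median without vehicle 1 and 3 was 0.04, with 28 of 47 higher. Eif5b, which joins the ribosomal subunits, had 0.99 with all libraries and 0.24 without vehicle 1 and 3.

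Mitochondrial and proteasome genes followed the same libraries. All 75 mitochondrial ribosomal protein genes tested were lower with rapamycin (all genes 41.4%), with a median of -0.29. Of the 75, 17 had an unadjusted p under 0.05 (22.7%, all genes 4.32%). Without vehicle 1 and 3, 53 of 75 were lower, 1 at an unadjusted p under 0.05, with a median of -0.04. Subunits of oxidative phosphorylation were lower in 74 of 79, with a median of -0.32 that became -0.00, 39 higher and 40 lower, without those libraries. Proteasome subunits were lower in 28 of 31 (median -0.25), and 21 of 31 were higher without them (median 0.02). The list deviations of vehicle 1 and 3 were 0.55 and 0.68 for mitochondrial ribosomal proteins, 0.63 and 0.79 for oxidative phosphorylation and 0.42 and 0.59 for the proteasome, in each case above every other control heart. The long-minus-short score moved with these lists, and its part in them was not tested. The medians with that score in the fit were -0.03, 0.03 and 0.03, but members of these lists were not left out when the score was built.

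Among single members, Mrps27, a small-subunit protein of the mitochondrial ribosome, held up best. It had 1910.2, 1486, 1901, 1558 and 1496 in control vehicle and 1397, 1314, 1341, 1169 and 1207 in control rapamycin hearts without overlap (log2 change -0.37, SE 0.10, adjusted p = 0.326), -0.24 without vehicle 1 and 3 and -0.27 in knockout hearts. Cox8b, a heart subunit of cytochrome oxidase, had -0.58, Uqcrc1, a core subunit of complex III, -0.33 and Psmd8, a proteasome lid subunit, -0.40. Their log2 changes without vehicle 1 and 3 were -0.19, -0.11 and -0.14. Lysosome and autophagy genes, which mTORC1 restrains, had a median of -0.10, with 12 higher and 31 lower of 43. Of these genes, 1 in each direction had an unadjusted p under 0.05 (2.33% each, all genes 10.6% higher and 4.32% lower). Their median without vehicle 1 and 3 was -0.01, with 20 higher and 23 lower. It was 0.09 in knockout hearts, with 28 of 43 higher.

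**Figure D3:**
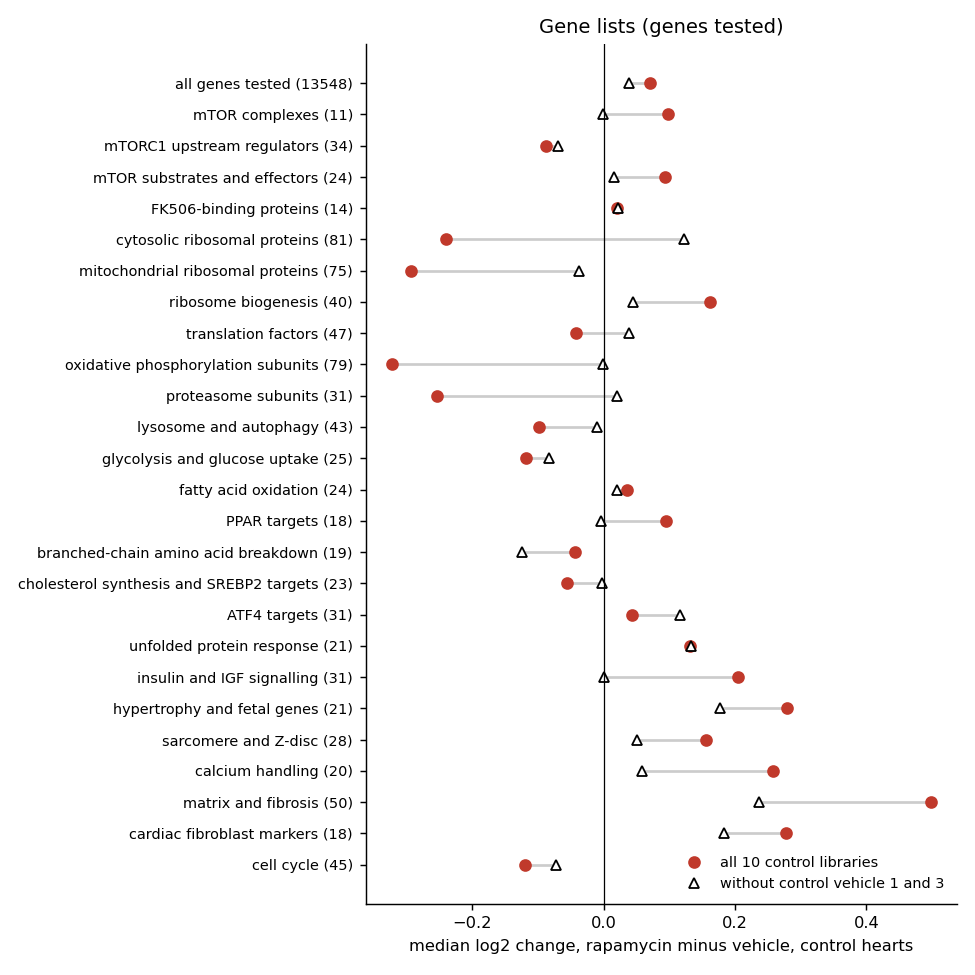
Median log2 change (x axis) of gene lists in control hearts with all 10 libraries (filled circles) and without control vehicle 1 and 3 (open triangles); the number of genes tested is in brackets. The medians of ribosomal, oxidative phosphorylation and proteasome lists move from between -0.32 and -0.24 to between -0.04 and 0.12, and the matrix list from 0.50 to 0.24.

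**Figure D4:**
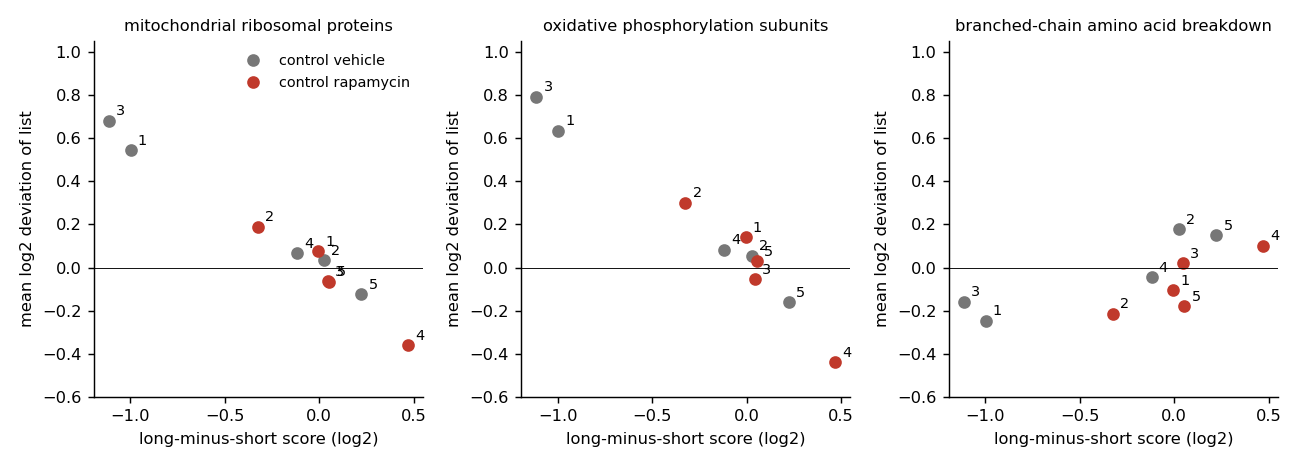
Mean log2 deviation of 3 gene lists (y axis) against the long-minus-short score (x axis, log2) in the 10 control libraries, numbered by replicate. Vehicle libraries 1 and 3 lie at the far left and are the highest for the first pair of lists, while for branched-chain amino acid breakdown they are not high.

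In the hypertrophy and fetal gene list, which holds markers of cardiac stress, 15 of 21 were higher with rapamycin in control hearts (all genes 58.6%) and 4 of them had an unadjusted p under 0.05 (all genes 10.6%). The median was 0.28 against 0.07 over all genes, and 0.18 without vehicle 1 and 3. The mean log2 deviation of the list was 0.08, 0.18, -0.16, -0.32 and 0.31 in rapamycin and -0.13, -0.42, -0.56, -0.13 and -0.44 in vehicle hearts, and that of 18 atrial and conduction markers 1.59, 1.53, -1.30, -1.15 and 0.20 and -1.38, -1.36, -1.11, -0.22 and -1.14. With the atrial score as a covariate the median of the stress list was 0.19. Ankrd1, a stretch-induced titin-binding repressor, had 8404, 7782, 4016, 12744 and 7086 in control vehicle and 9544, 18150.4, 19049, 15967 and 25185 in control rapamycin hearts. In Ankrd1, 4 of the 5 rapamycin hearts stood above every vehicle heart, and the log2 change was 1.16 (SE 0.30, adjusted p = 0.326), 0.92 without vehicle 1 and 3, and -0.12, 1.13, 2.25 and 1.83 within pools 1 to 4. Myh7, the slow myosin heavy chain of the stressed mouse ventricle, had 7235, 17422, 6265, 21139 and 20787 against 25291, 24379, 28119.5, 26202 and 25715 (log2 change 1.01, SE 0.29, adjusted p = 0.328). The Myh7 groups did not overlap, but vehicle 1 and 3 were far below the rest, and without them the log2 change was 0.39. Xirp2, an actin-binding repeat protein of intercalated discs, had 1096, 5171, 1099.8, 3639 and 5829 against 6791, 5109.5, 7022, 9947 and 8432, with a log2 change of 1.45 that was 0.60 without vehicle 1 and 3.

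The natriuretic peptide and actin markers had mixed signs. Nppa, atrial natriuretic peptide, had 5899.6, 1295, 3049, 3438 and 1334 with vehicle and 12506, 17827, 3021, 1431 and 8790.0 with rapamycin (log2 change 1.26, SE 0.68, adjusted p = 0.351). Nppb, brain natriuretic peptide, was highest of all control hearts in vehicle library 1 and had 0.38 (SE 0.74), or 1.30 without vehicle 1 and 3. Acta1, skeletal actin, had 6022, 2176, 5575, 5380.0 and 1276 against 2581, 1823, 2026, 559.9 and 5238, a log2 change of -0.83 in control and -1.82 in knockout hearts (unadjusted p = 0.217 and 0.0113), with -0.34 in control hearts without vehicle 1 and 3. The fast myosin gene Myh6 had 0.55 with all libraries and -0.05 without vehicle 1 and 3. In knockout hearts Ankrd1, Myh7 and Xirp2 had 0.14, -0.03 and -0.29; as with Gnao1, the control vehicle mean was the lowest of the 4 groups for Myh7, at 14569.5 against 25941, 28280.4 and 27573.

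**Figure D5:**
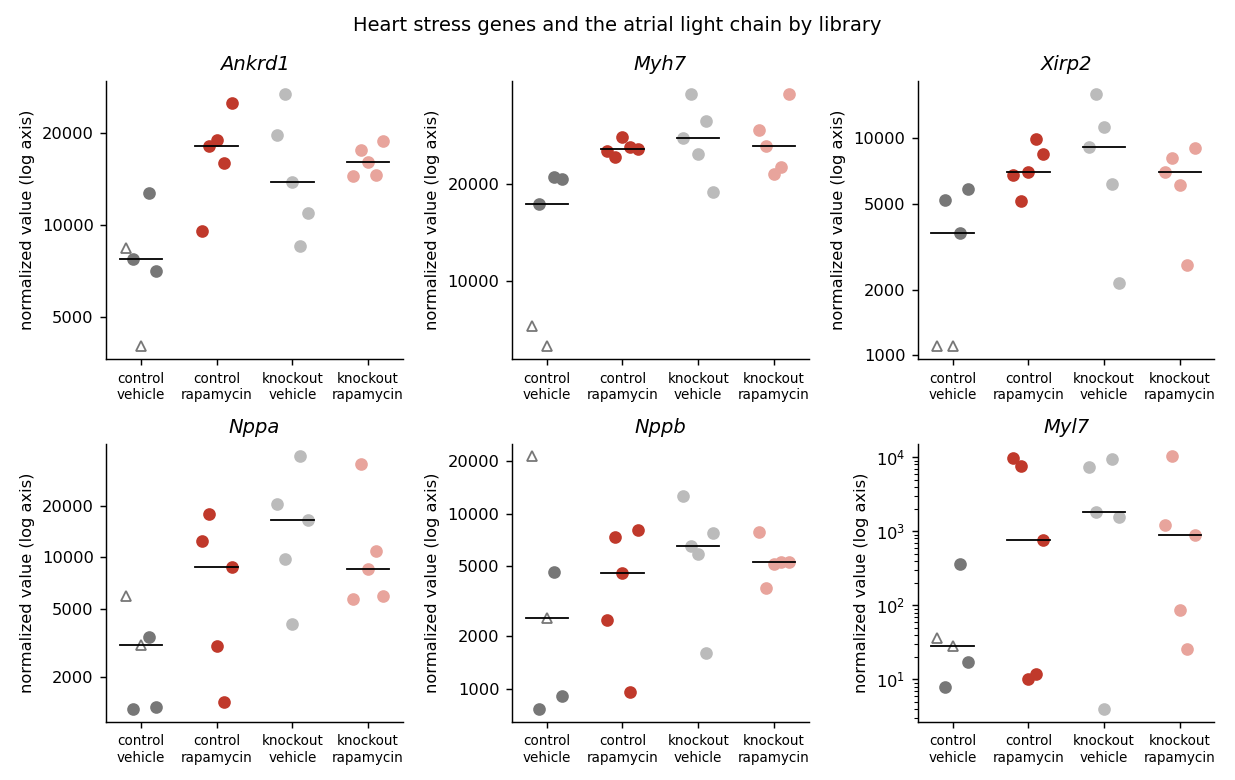
Normalized values (log axes) of 5 heart stress genes and of the atrial light chain Myl7 in all 20 libraries; lines are group medians and open triangles are control vehicle libraries 1 and 3. The 5 control rapamycin hearts lie above all control vehicle hearts for Myh7, and control rapamycin libraries 1 and 2 hold by far the most Myl7 of the control hearts.

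For contractile and calcium handling genes the medians were near that of all genes only without vehicle 1 and 3. Sarcomere and Z-disc genes had a median of 0.16 (18 of 28 higher) and calcium handling genes 0.26 (15 of 20 higher), or 0.05 and 0.06 without those libraries (0.04 over all genes). Flnc, a Z-disc filamin, had 0.73, and Ttn, the giant spring of the sarcomere, 0.90; without vehicle 1 and 3 they had 0.36 and 0.24. Kcnip2, an auxiliary subunit of the channels of the fast transient outward potassium current, had 2433, 2521, 2012, 1893 and 2122 in control vehicle and 1189, 1580.2, 1625, 1137 and 2071 in control rapamycin hearts (log2 change -0.56, SE 0.15, adjusted p = 0.326). Only rapamycin library 5 overlapped the vehicle range, and the log2 change was -0.54 without vehicle 1 and 3 and -0.32 in knockout hearts (unadjusted p = 0.0475). Within pools 1 to 4 it was -0.85, -0.91, -0.31 and -0.03. Kcnj5, a G-protein-gated potassium channel, had 0.74, or 0.39 without vehicle 1 and 3. Adcy5, a main cardiac adenylyl cyclase, was apart between the groups at 2583, 2813, 3030.2, 3379 and 3023 against 3449, 3609, 3469, 3639 and 3653 (log2 change 0.27, 0.22 without vehicle 1 and 3). Casq1, the skeletal calsequestrin, had 1.35 in control and -0.62 in knockout hearts.

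Extracellular matrix genes were higher in 43 of 50 (86%, all genes 58.6%), 10 at an unadjusted p under 0.05 (20%, all genes 10.6%), with a median of 0.50, and in 39 of 50 without vehicle 1 and 3, 1 at an unadjusted p under 0.05, with a median of 0.24. In knockout hearts 35 of 50 were lower, with a median of -0.13. Thbs1, a matricellular protein that activates TGF-beta, had 114, 82.4, 97.4, 338 and 174 in control vehicle and 576, 379, 251, 360.1 and 1109 in control rapamycin hearts (log2 change 1.73, SE 0.61). Tgfb2 itself had 0.99 and Col16a1, a fibril-associated collagen, 1.07, and the treatment groups overlapped for each of these. Cardiac fibroblast markers were higher in 15 of 18 (median 0.28, or 0.18 without vehicle 1 and 3), with Pdgfra, their surface receptor, at 0.52 and 0.14. The summed level of the fibroblast list ran from 74846 to 91483 in vehicle and from 83315 to 108778 in rapamycin hearts, and its part in the matrix values was not tested. In bulk tissue, more cells of a type and more RNA per cell cannot be told apart.

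Glucose uptake and glycolysis, which mTORC1 is known to promote, lay lower in 17 of 25 genes (68%, all genes 41.4%), with a median of -0.12. Of the 25, 8 were lower at an unadjusted p under 0.05 (32%, all genes 4.32%). Between the groups 4 were apart in that direction (all genes 0.59%). Without vehicle 1 and 3, 15 of 25 were lower, 0 at an unadjusted p under 0.05, with a median of -0.08. Gapdh had 176608, 119546, 184753, 112135 and 108200.0 in control vehicle and 107612, 101604, 89963, 67916 and 103194 in control rapamycin hearts, apart by a narrow gap (log2 change -0.56, SE 0.19, adjusted p = 0.328). Ldhb, the heart lactate dehydrogenase, had -0.31 and was apart too, and Slc2a4, the insulin-regulated glucose transporter GLUT4, had -0.39 with overlap. Without vehicle 1 and 3 these were -0.29, -0.19 and -0.16, and in knockout hearts -0.02, -0.02 and -0.08. The basal transporter Slc2a1 had -0.37, and Hk2, which traps glucose, had the opposite sign at 0.48, or 0.14 without vehicle 1 and 3.

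Fatty acid genes were split between directions: 13 of 24 oxidation genes were higher, with a median of 0.03 (-0.02 after median-ratio rescaling), and 10 of 18 PPAR targets, with a median of 0.10. The medians without vehicle 1 and 3 were 0.02 and -0.00. Cpt1b, the gate of mitochondrial fatty acid entry, had 19941 ± 3264 with vehicle and 18723 ± 1547 with rapamycin (log2 change -0.08, or 0.03 without vehicle 1 and 3). Echs1, the short-chain enoyl-CoA hydratase that also serves valine breakdown, was apart, 16766, 15304, 16148, 13854 and 13353 against 13191, 13328, 13055, 11612 and 12477 (log2 change -0.24, SE 0.09, -0.15 without vehicle 1 and 3, -0.12 in knockout hearts). Pdk4, the kinase that shuts off pyruvate oxidation, had 11924, 28469, 37204, 45987 and 138099 against 45729, 45933, 23077, 42734 and 59071, so the groups overlapped widely (log2 change 0.12, SE 0.55, or -0.45 without vehicle 1 and 3). Ucp2 had -0.41, Txnip 0.07 and the coactivator Ppargc1a 0.30; without vehicle 1 and 3 they had -0.44, 0.32 and -0.04. In the sterol list, which SREBP2 drives, 10 of 23 were higher and the median was -0.06, or -0.00 without vehicle 1 and 3. Fdft1, the first committed step to sterols, had -0.38 and Insig1, the feedback anchor, -0.44 (-0.26 and -0.27 without vehicle 1 and 3). The regulators Srebf1 and Srebf2 had 0.19 and 0.20, or -0.14 and 0.10 without vehicle 1 and 3.

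Of the stress pathways, the unfolded protein response list was higher in 18 of 21 (all genes 58.6%), 5 at an unadjusted p under 0.05 (all genes 10.6%), with a median of 0.13 both with and without vehicle 1 and 3, though 0 had an unadjusted p under 0.05 without them. Pdia4, a disulfide isomerase, had 618, 479, 295, 931 and 718 in control vehicle and 606, 798, 1226, 982 and 1432 in control rapamycin hearts (log2 change 0.77), Hyou1, a chaperone of the same compartment, 0.64 and the cytosolic chaperone Hsp90aa1 0.79. Without vehicle 1 and 3 these had 0.49, 0.44 and 0.43, and in knockout hearts 0.06, 0.01 and -0.08. ATF4 targets, which mTORC1 can induce, were higher in 20 of 31 (64.5%, all genes 58.6%) with a median of 0.04, below the 0.07 of all genes, or -0.01 after either other scaling. Their median without vehicle 1 and 3 was 0.12, above the 0.04 of all genes, with 17 of 31 higher. Trib3 had 0.17, or 0.22 without vehicle 1 and 3.

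Macrophage markers were split between directions, with 10 higher and 12 lower of 22 and a median of -0.09. Cd68, a lysosomal glycoprotein of macrophages, had 189.7, 196, 223, 194 and 157 in control vehicle and 136, 98.7, 144, 81.5 and 126 in control rapamycin hearts. The groups did not overlap, and the log2 change was -0.73 (SE 0.21, adjusted p = 0.328), -0.65 without vehicle 1 and 3 and -0.45 in knockout hearts (unadjusted p = 0.0488). Retnla, a marker of alternatively activated macrophages, had the opposite sign, 315, 135, 311, 258 and 228 against 359, 696, 726, 406 and 297 (log2 change 0.96, SE 0.33, adjusted p = 0.328). It was 1.22 without vehicle 1 and 3 and 1.56 in knockout hearts (unadjusted p = 0.000143). Within pools 1 to 4 it was 0.33, 1.97, 1.22 and 0.38. Vcam1, an adhesion molecule for leukocytes, had 326, 500.2, 497, 447 and 328 with vehicle and 521, 548, 516, 565 and 516 with rapamycin, apart by a narrow gap. Its log2 change was 0.37 in control and -0.36 in knockout hearts, and the difference between the genotypes had an adjusted p of 0.523.

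The ventricle label was checked against its markers. The summed level of 12 cardiomyocyte markers ran from 2418270 to 3010380 in vehicle and from 2301890 to 2655950 in rapamycin hearts. Atrial and conduction markers varied between libraries: all 18 were higher with rapamycin (all genes 58.6%), with a median of 0.97. Of the 18, 4 had an unadjusted p under 0.05 (22.2%, all genes 10.6%). Myl7, the atrial light chain, named after its values were seen, had 35.7, 7.85, 27.8, 356 and 17.4 in control vehicle and 9675, 7668, 10.1, 11.8 and 753 in control rapamycin hearts, and the mean log2 deviation of the list was 1.59 and 1.53 in rapamycin libraries 1 and 2. Their sum ran from 15698 to 24172 in vehicle and from 13698 to 58134 in rapamycin hearts. Nppa is on that list and was high in the same rapamycin libraries, 1 and 2, as well as in 5. With the atrial score, which includes Nppa itself, as a covariate its log2 change was 0.26, against 1.18 for Ankrd1, 0.91 for Myh7 and 1.40 for Xirp2. Adipocyte markers had a median of 1.19, or 0.53 without vehicle 1 and 3, with 9 of 10 higher and 0 at an unadjusted p under 0.05, and erythroid transcripts -0.42, with 7 of 8 lower, or -0.02, with 5 of 8 lower, without vehicle 1 and 3. Endothelial markers had a median of 0.12 and smooth muscle and pericyte markers 0.19, or -0.01 and 0.04 without vehicle 1 and 3.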

How the data were processed

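Ventricular poly(A) RNA of 20 mice was sequenced in 4 groups of 5, and no raw counts were used. The deposited signal values are RSEM abundance estimates per gene that the authors normalized, and their upper quartile is 996.6 to 1000 in every library. RSEM, SAMtools, Picard 1.64 and the mm9 build come from the submitters' processing notes, and the aligner is not given in the sources used here. In each library 87.8% to 89.4% of low values were whole multiples of the smallest step within 0.05 reads, which gave implied depths but no recovered counts, so no count test was run. Of 21705 genes, 21562 matched the RefSeq table by Entrez ID.

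Values were filtered (at least 10 in at least 5 libraries), taken as log2(value + 1) and fitted with limma 3.58.1 in R 4.3.3 (group means over 20 libraries, trended empirical Bayes, two-sided, Benjamini-Hochberg over 13548 genes, threshold 0.05). The scripts were tested on simulated data. Transcript lengths are the longest GENCODE M21 transcript per Entrez ID, and the long-minus-short score uses genes with a mean of at least 100. Promoter windows are from RefSeq GRCm38.p6.

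Members and gene lists were chosen with earlier results of these data known. Named genes are Acsl1, the 12 of smallest p per direction with a mean of at least 100 in the control libraries and no overlap between groups (none passed), up to 3 of smallest p per list, and a fixed set of mTOR, heart and fuel genes; a few of these are not reported here. The replicate number did not pair the samples. Alternatives covered the pseudocount (0.5 and 10), filters, 2 other scalings, covariates, pool and replicate terms, and each control library left out in turn.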

Additional observations from a re-analysis of the deposited data

Results flagged for a closer look

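Within groups of 5 control libraries, 15 of 220 gene and group sets held 1 library whose gap to the nearest of the others took up more than 0.71 of the group's range, and chance gives about 1 such set in 20. In control rapamycin library 1, Hibch had 2075 against 1666 to 1753 in the other 4 and Klf15 had 4037 against 1686 to 1916 in the other 4. In control rapamycin library 4, Acsl1 had 16661 against 10518 to 12198 in the other 4, Akt1s1 had 1479 against 1766 to 1847 in the other 4 and Ckb had 761 against 1072 to 1174 in the other 4. In control vehicle library 1, Mlst8 had 498 against 324 to 367 in the other 4, Nppb had 21192 against 765 to 4626 in the other 4 and Scgb1c1 had 560.3 against 221 to 318 in the other 4. In control vehicle library 3, 2310002L09Rik had 3281 against 2078 to 2391 in the other 4, Fah had 1229.7 against 604 to 732 in the other 4, Hibch had 2387 against 1741 to 1859.7 in the other 4 and Insig1 had 1327 against 702 to 857 in the other 4. In control vehicle library 4, Casq1 had 466 against 122 to 151 in the other 4 and Myl7 had 356 against 7.85 to 35.7 in the other 4. In control vehicle library 5, Pdk4 had 138099 against 11924 to 45987 in the other 4. None of these genes passed the test between treatments.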

How the results depend on the processing

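In control hearts 0 genes had an adjusted p under 0.05 in limma under all 23 alternative settings. The lowest adjusted p of any of the 110 named genes in any setting was 0.0926. Of these genes, 85 kept their direction throughout. Part of that count was fixed by the choice, since genes named for no overlap keep their sign when libraries are left out. The 2024 genes at an unadjusted p under 0.05 became 1232 with only the 10 control libraries in the fit, 893 with robust variances and array weights, 1330 with the atrial score as a covariate and 474 without control vehicle 1 and 3 together. Leaving out 1 control library gave 796 to 3702: 796 without vehicle 3, 1050 without vehicle 1, 1014 without rapamycin 4 and 3702 without vehicle 5. The direction of these genes depended on the scaling: 1439 of 2024 were higher as deposited, 1015 of 1932 after median-ratio rescaling and 747 of 1780 after quantile normalization, with the median of all genes at 0.07, 0.02 and -0.02. The 1 gene called in knockout hearts, Pdhx, became 0 under quantile normalization, median-ratio rescaling, the pool term, the atrial covariate, without vehicle 1 and 3, and with any control library left out (range 0 to 0), 58 with robust variances and array weights and 223 with the long-minus-short covariate; the cause was not tested. Samples with the same replicate number did not deviate together (correlations from -0.28 to 0.17, and 0 of 5 libraries correlated best with their own number). With a replicate block 0 genes were called in control hearts, 1922 had an unadjusted p under 0.05, and 0 were called in knockout hearts. Depth was known only as implied reads. With 5 libraries per group, a difference not detected here may lie under the spread between hearts.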
